A study of Homo sapiens with 12 samples.

Results

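The mRNAs of 10 cell surface proteins were followed on polysomes of triple-negative breast cancer cells: the immunoglobulin superfamily adhesion molecules MCAM, THY1, ALCAM and L1CAM, the hyaluronan receptor CD44, and the tetraspanins CD9, CD63, CD81, CD82 and CD151. They were chosen by name, from earlier results of these same libraries in which their levels and their EV-against-KD or EV-against-OE differences were known, so their gene-level changes are given here as a description. No p is printed for them, and where a member is said to be called higher or lower, this only counts it by the threshold of the fit over all genes and supports nothing. All 10 were found among the 24559 gene symbols of the count table. A member's value is the sum over its transcripts. Polysomes are mRNAs carrying several ribosomes, separated here on sucrose gradients. No total RNA libraries were analysed here, so a higher value may be more mRNA or more ribosomes per mRNA. It may also be a larger share of a smaller polysome pool, and these cannot be told apart.

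The 12 libraries came from 3 established human lines with 2 libraries per group. MDA-MB-231 and SUM159 carried either a short hairpin RNA against TRMT112 (KD) or the control construct that the labels call EV CTRL and the study's methods describe as a non-silencing hairpin. BT549 carried either a TRMT112 open reading frame (OE) or its empty vector (EV). TRMT112 is the small activating partner of several methyltransferases that modify ribosomal RNA, transfer RNA and translation factors. The constructs were transfected and selected with a drug, and neither the labels nor the methods say whether each derived line is 1 clone or a pool, or whether the replicates were separate cultures. Spread between libraries may therefore be technical, and the standard errors and p-values below rest on that spread alone. A difference from EV may go with TRMT112 or with the making of the derived lines, and these cannot be told apart here. TRMT112 itself went from 4147 and 3938 normalized counts in MDA-MB-231 EV to 1764 and 1682 in KD, from 6332 and 6566 in SUM159 EV to 3909 and 3699 in KD, and from 3076 and 3087 in BT549 EV to 4286 and 4319 in OE, in the direction of each label.

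Depth lay between 22954226 and 27434677 estimated counts per library. Values were scaled between libraries, so each is relative to the other mRNAs of its library. The study reports smaller polysome peaks in both KD lines and larger ones in OE, which such values do not show. Of the receptors whose absence defines triple-negative cells, PGR was at or near 0 and ERBB2 was between 27.3 and 54.4 TPM (a level corrected for transcript length and library size) as a group mean. ESR1, also among them, was not in the count table and could not be assessed. Endothelial markers summed to at most 2.51 TPM in any library, PTPRC (the pan-leukocyte marker CD45) was at most 0.244 TPM in any group mean, and the leukocyte list's sum was mostly CD68, which is not confined to leukocytes. CD68 had a group mean of 163 TPM in BT549 EV and 6.39 TPM in OE, where CD14 made up 3.85 TPM of the list's 10.1 to 10.5 TPM. The summed level of 8 epithelial markers, of which KRT5 was not in the count table, lay between 878 and 1023 TPM in MDA-MB-231. It lay between 471 and 566 TPM in SUM159 and between 1.94 and 5.76 TPM in BT549. KRT8 and KRT18 made up most of the sum in MDA-MB-231 EV (327 and 535 TPM) and SUM159 EV (207 and 262 TPM). In these groups EPCAM was at 3.94 and 0.151 TPM, CDH1 at 0.165 and 0 TPM, and CLDN4 at 24.9 and 1.41 TPM, in that order. The summed level of 13 fibroblast and mesenchymal markers lay between 1375 and 1472 TPM in MDA-MB-231, between 2068 and 2073 TPM in SUM159 EV and between 1593 and 1657 TPM in SUM159 KD. In BT549 it was 1796 to 1815 TPM in EV, with 6 of 13 markers above 1 TPM, and 4488 to 4491 TPM in OE, with 12 of 13.

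MCAM (CD146) binds a laminin and joins growth factor receptors, and ALCAM (CD166) binds copies of itself on other cells and CD6 on T cells, both through immunoglobulin domains. THY1 (CD90) is a small immunoglobulin protein held in the membrane by a lipid anchor and is used as a marker of fibroblasts and mesenchymal cells. L1CAM is a neural adhesion molecule that tumour cells can also make. CD44 binds hyaluronan in the matrix, and its mRNA is spliced with or without a series of variable exons that lengthen the part of the protein outside the cell. Tetraspanins cross the membrane several times and gather integrins and other partners into patches; CD9, CD63 and CD81 are the usual markers of extracellular vesicles, CD151 binds laminin-binding integrins, and CD82 is known as a suppressor of metastasis.

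The CD44 transcripts carry the clearest difference in sequence among the members, so the exons that separate them are shown first. CD44 lies on the plus strand of chromosome 11 (GRCh38 chr11:35138882-35232402). CD44-201, the standard form, has 9 exons and skips the intron from 35190066 to 35214851. CD44-209 has 12 exons and carries 3 further exons of 102, 90 and 204 bases inside that intron, and CD44-210 carries only the third. Each of the 3 lengths is a multiple of 3, so each exon leaves the reading frame as it was. Together they are the set known from the epithelial form of CD44. The capitals mark the whole exon, and the coordinates are chr11:35208105-35208206, chr11:35209965-35210054 and chr11:35211246-35211449 in order.
CD44 variable exon 1: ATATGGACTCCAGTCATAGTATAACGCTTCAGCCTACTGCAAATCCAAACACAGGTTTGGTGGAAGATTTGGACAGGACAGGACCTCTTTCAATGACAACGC
CD44 variable exon 2: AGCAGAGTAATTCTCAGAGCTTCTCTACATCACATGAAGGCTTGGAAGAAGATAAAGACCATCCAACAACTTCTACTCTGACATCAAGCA
CD44 variable exon 3: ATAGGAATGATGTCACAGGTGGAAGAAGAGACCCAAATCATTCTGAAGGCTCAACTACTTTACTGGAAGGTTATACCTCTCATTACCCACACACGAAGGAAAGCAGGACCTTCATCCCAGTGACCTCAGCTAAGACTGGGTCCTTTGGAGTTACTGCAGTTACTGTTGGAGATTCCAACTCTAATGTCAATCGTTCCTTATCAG

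The joins at the end of the shared exon tell the 3 transcripts apart. Each run below holds the last 30 bases of the shared exon in lower case and the first 30 bases of the next exon in capitals, as the annotation joins them.
CD44-201 junction: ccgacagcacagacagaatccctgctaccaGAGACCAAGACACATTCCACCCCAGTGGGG
CD44-209 junction: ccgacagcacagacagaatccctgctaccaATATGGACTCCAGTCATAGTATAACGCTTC
CD44-210 junction: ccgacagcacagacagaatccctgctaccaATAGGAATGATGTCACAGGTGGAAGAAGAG

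MCAM lies on the minus strand of chromosome 11 (chr11:119308529-119321521). It was at 5232 and 4991 normalized counts (estimated counts scaled to a common library size) in MDA-MB-231 EV and 3244 and 3237 in KD. The SUM159 EV libraries held 717 and 680 and those of KD 7564 and 7351. BT549 EV held 246 and 256, against 5568 and 5519 under OE. The groups did not overlap in any line: MCAM was lower on knockdown in MDA-MB-231 and higher in both other comparisons. The fitted log2 fold changes were -0.66 (SE 0.04) in MDA-MB-231, 3.42 (SE 0.04) in SUM159, a 10.7-fold difference, and 4.46 (SE 0.05) in BT549, a 22.1-fold difference. The size of the change ranked above that of 96.6% of all tested genes in SUM159 and of 93.9% in BT549. In the control cells MCAM was highest in MDA-MB-231, at 134 ± 3.22 TPM (SD, n = 2), and lowest in BT549, at 5.08 ± 0.347 TPM. In the KD and OE groups MDA-MB-231 was instead the lowest, with 79.9 ± 0.433 TPM in MDA-MB-231 KD, 156 ± 1.66 TPM in SUM159 KD and 109 ± 0.996 TPM in BT549 OE.

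THY1 lies 93954 bases further along the same chromosome, on the same strand (chr11:119415476-119424985). In MDA-MB-231 it had 1 and 2 counts in EV and 0 in both KD libraries, which is at or under the floor of 3 counts, so no fold is given. In SUM159 THY1 was at 631 and 697 normalized counts in EV and at 7224 and 6967 in KD, a log2 fold change of 3.42 (SE 0.04). BT549 EV held 11524 and 11097 and OE 68672 and 65668, a log2 fold change of 2.57 (SE 0.03). The groups did not overlap in either line. At 2822 ± 130 TPM (SD, n = 2) in BT549 OE, THY1 stood above every tetraspanin in that group and above 99.9% of all detected genes. Its level was 480 ± 14.4 TPM in BT549 EV, 317 ± 2.53 TPM in SUM159 KD and 29.9 ± 6.96 TPM in SUM159 EV. The rise in BT549 OE went with the fibroblast and mesenchymal marker sum given above, in which TAGLN went from 16.0 to 2017 TPM and COL1A1 from 25.6 to 625 TPM. VIM, the mesenchymal filament protein, went the other way, from 1665 to 597 TPM. In SUM159 KD the sum was lower than in EV while THY1 and MCAM were higher. VIM, the largest part of that sum, went from 1866 to 1366 TPM there. The other markers went both ways, such as TAGLN from 40.4 to 87.3 TPM and PDGFRB from 3.63 to 1.67 TPM. The part of these markers in the result was not tested.

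**Figure D1:**
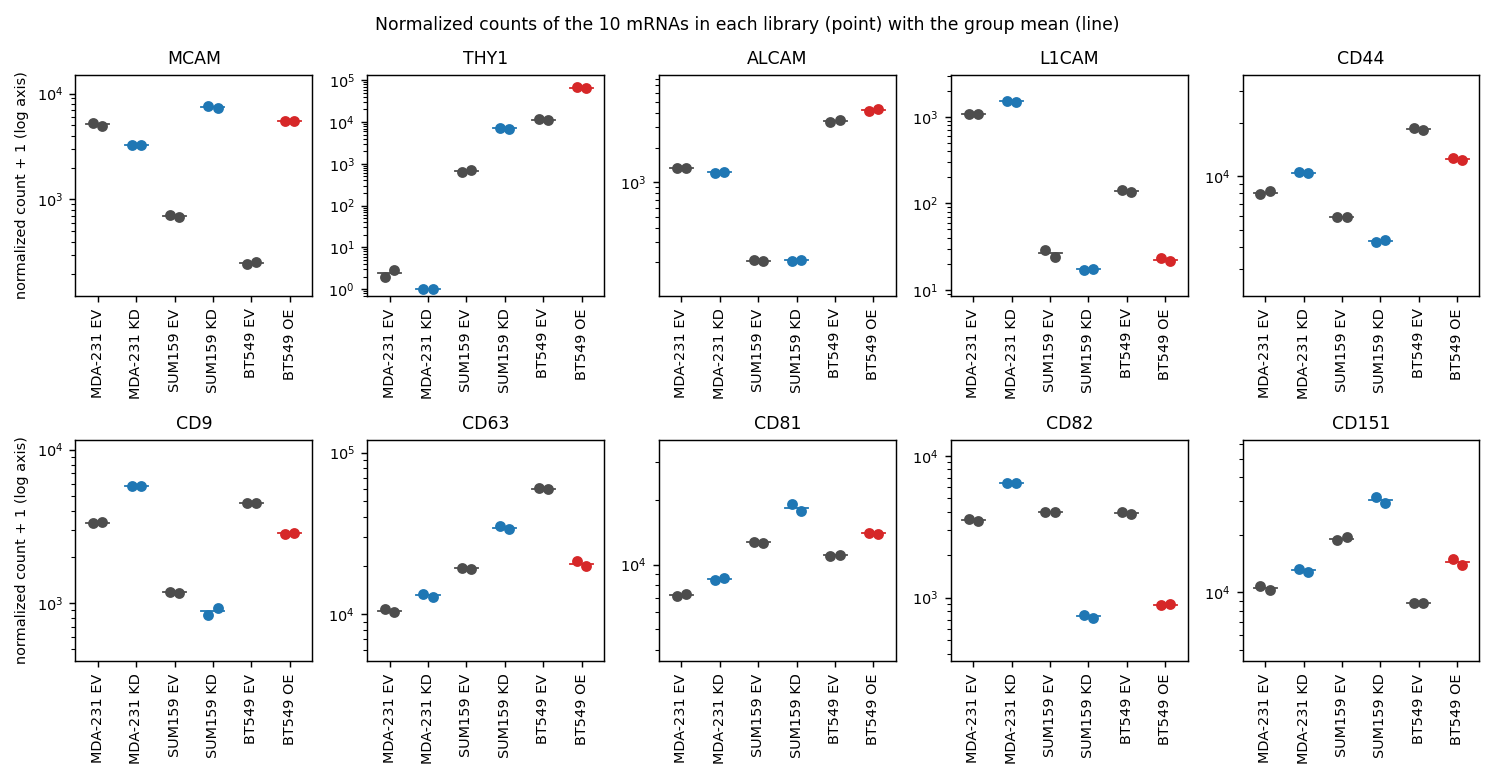
Normalized counts plus 1 on a log axis for the 10 mRNAs, 1 panel each, with a point per library and a line at the mean of the 2 libraries of a group (grey, EV; blue, KD; red, OE). The vertical range differs between panels; MCAM and THY1 rose by several fold in SUM159 KD and BT549 OE, and THY1 lay at 0 to 2 counts in MDA-MB-231.

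ALCAM, on chromosome 3 (chr3:105366909-105576900, plus strand), differed mostly between lines. It was at 1321 and 1325 normalized counts in MDA-MB-231 EV and 1207 and 1235 in KD, a log2 difference of -0.12 (SE 0.05). SUM159 EV held 206 and 203 and KD 206 and 209, where the groups overlapped and the log2 difference was 0.02 (SE 0.09). The BT549 libraries had 3354 and 3451 under EV and 4179 and 4348 under OE, a log2 fold change of 0.33 (SE 0.04). Per length, ALCAM stood at 49.4 ± 1.12 TPM in BT549 EV, 27.3 ± 0.783 TPM in MDA-MB-231 EV and 3.58 ± 0.323 TPM in SUM159 EV (SD, n = 2).

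L1CAM, on the X chromosome (chrX:153861514-153886173, minus strand), was at 1097 and 1087 normalized counts in MDA-MB-231 EV and 1550.5 and 1480 in KD, a log2 fold change of 0.47 (SE 0.06). SUM159 held only 28.3 and 23.1 under EV and 16.1 and 16.4 under KD, a log2 difference of -0.65 (SE 0.28) that rests on few counts. L1CAM fell in BT549 from 141 and 135 to 22.1 and 20.4 under OE, a log2 fold change of -2.69 (SE 0.19). L1CAM was the lowest member in SUM159 and BT549, at 0.644 ± 0.141 TPM (SD, n = 2) in SUM159 EV, against 20.5 ± 0.00898 TPM in MDA-MB-231 EV. THY1 and L1CAM were thus at opposite ends: MDA-MB-231 held L1CAM without THY1, and the 2 other lines held THY1 with little L1CAM.

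CD44 was at 7907 and 8265 normalized counts in MDA-MB-231 EV and 10533 and 10421 in KD, a log2 fold change of 0.37 (SE 0.03). SUM159 held 5926 and 5920 under EV and 4261 and 4349 under KD, a log2 fold change of -0.46 (SE 0.03). CD44 was highest in BT549 EV, with 18635 and 18142, against 12616 and 12253 under OE, a log2 fold change of -0.56 (SE 0.03). The groups did not overlap in any line; CD44 was higher on knockdown in MDA-MB-231 and lower in both other comparisons, the reverse of MCAM.

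CD82 had the largest changes among the tetraspanins. It was at 3564 and 3487 normalized counts in MDA-MB-231 EV and 6472 and 6396 in KD, a log2 fold change of 0.87 (SE 0.03). SUM159 EV held 3988 and 3978 and KD 758 and 714, a log2 fold change of -2.44 (SE 0.04), or 5.42-fold lower. A like drop was seen in BT549, from 3982 and 3860 under EV to 880 and 900 under OE, a log2 fold change of -2.14 (SE 0.04), or 4.41-fold lower. The control groups lay close together, between 134 ± 2.07 TPM in BT549 EV and 157 ± 0.133 TPM in SUM159 EV (SD, n = 2).

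CD9 was at 3325 and 3370 normalized counts in MDA-MB-231 EV and 5793 and 5779 in KD, a log2 fold change of 0.79 (SE 0.04). SUM159 had less CD9, 1187 and 1171 under EV and 840 and 929 under KD, a log2 fold change of -0.41 (SE 0.05). The BT549 libraries held 4483 and 4478 under EV and 2839 and 2863 under OE, a log2 fold change of -0.65 (SE 0.04). CD9 thus had the same signs as CD82 and CD44 in all 3 lines.

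CD63, which sits mostly in late endosomes and vesicles, was the most abundant of the 10 per length in every group but BT549 OE. It was at 10712 and 10285 normalized counts in MDA-MB-231 EV and 13389 and 12761 in KD, a log2 fold change of 0.32 (SE 0.03). SUM159 KD, with 34956 and 33855, stood above SUM159 EV, with 19454 and 19175, a log2 fold change of 0.83 (SE 0.03). BT549 EV had the most, 60033 and 59676, and OE 21260 and 19954, a log2 fold change of -1.54 (SE 0.03). CD63 was the only member called in both SUM159 KD and BT549 OE with opposite signs. Its level fell from 3843 ± 2.58 TPM in BT549 EV to 1310 ± 33.0 TPM in OE (SD, n = 2).

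CD81 and CD151 were higher in all 3 comparisons. CD81 was at 7120 and 7295 normalized counts in MDA-MB-231 EV and 8451 and 8623 in KD, at 12799 and 12641 in SUM159 EV and 19061 and 17771 in KD, and at 11002 and 11053 in BT549 EV and 14057 and 13953 in OE. Its log2 fold changes were 0.24, 0.53 and 0.34 in that order, each with an SE of 0.03. CD151 was at 10792 and 10347 in MDA-MB-231 EV and 13317 and 12790 in KD, at 18724 and 19414 in SUM159 EV and 31458 and 29511 in KD, and at 8757 and 8760 in BT549 EV and 15012 and 13956 in OE. Its log2 fold changes were 0.30 (SE 0.04), 0.68 (SE 0.03) and 0.73 (SE 0.04).

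**Figure D2:**
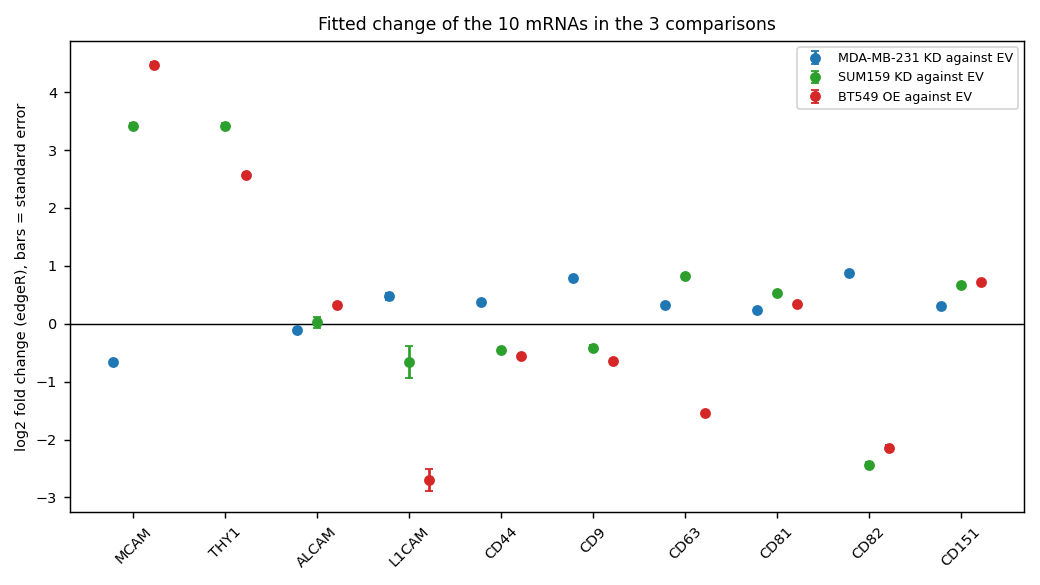
Fitted log2 fold change of each mRNA in MDA-MB-231 KD, SUM159 KD and BT549 OE, each against its own EV, with bars of 1 standard error (mostly smaller than the point). MCAM lies at -0.66, 3.42 and 4.46 and CD82 at 0.87, -2.44 and -2.14; THY1 has no value in MDA-MB-231.

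Counted over the members, 9 were tested in MDA-MB-231, THY1 falling to the floor, and 10 in each other line. At an adjusted p under 0.05 (edgeR's quasi-likelihood test, Benjamini-Hochberg adjustment over 16538 genes), 7 members were called higher and 1 lower in MDA-MB-231 KD, beside 21.2% and 16.5% of all genes. In SUM159 KD 5 were called higher and 3 lower, beside 28.6% and 31.4%. In BT549 OE 5 were called higher and 5 lower, beside 35.6% and 35% of all genes. The libraries of the compared groups did not overlap for 9, 9 and 10 members in the same order, beside 66%, 76.7% and 82.9% of all genes. Since the members were chosen with these differences known, nothing is read from these counts. Taken without sign, the members' log2 fold changes had a median of 0.37 in MDA-MB-231 (0.23 over all genes), 0.66 in SUM159 (0.46) and 1.13 in BT549 (0.70).

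Of the 8 members called in both SUM159 KD and BT549 OE, 7 had the same sign: MCAM, THY1, CD81 and CD151 were higher and CD44, CD9 and CD82 lower. TRMT112 was lower in the former and higher in the latter. Over all genes called in both comparisons, 55.1% had the same sign. Of the 7 members called in both knockdown lines, CD63, CD81 and CD151 had the same sign and MCAM, CD44, CD9 and CD82 opposite signs, beside 57.2% of all such genes with the same sign. Of the 8 members called in both MDA-MB-231 KD and BT549 OE, CD81 and CD151 had the same sign and the other 6 opposite signs, beside 44.4% of all such genes with the same sign. Nothing is read from these counts either.

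The tetraspanin mRNAs were compared with each other per length. The summed level of the 5 was 2373 and 2330 TPM in MDA-MB-231 EV, 2911 and 2862 in KD, 3348 and 3320 in SUM159 EV, 4894 and 4736 in KD, 5163 and 5166 in BT549 EV, and 2840 and 2764 in OE. It was thus higher in both KD groups than in their controls and lower in OE, but the single mRNAs did not all follow the sum. In BT549 OE CD63 went from 3843 to 1310 TPM, and CD9 and CD82 were lower too. CD81 rose there from 580 to 693 TPM and CD151 from 384 to 627 TPM. In SUM159 KD CD9 and CD82 were lower while the sum was higher. CD63 made up 37.2 to 38.0% of the sum in MDA-MB-231 EV and 42.2 to 42.9% in SUM159 EV but 74.4% in both BT549 EV libraries, falling to 46.6 to 47.0% in BT549 OE. CD9 with CD82 were a minor part in SUM159 KD, at 0.905 and 1.06% for CD9 and 0.558 and 0.553% for CD82. The order CD63, CD151, CD81 from the top was the same in MDA-MB-231 and SUM159 and in both of their groups, and no neighbours in these orders overlapped between libraries. In BT549 EV, CD81 at 580 ± 0.278 TPM, THY1 at 480 ± 14.4 TPM and CD44 at 440 ± 5.92 TPM stood above CD151 at 384 ± 0.0368 TPM (SD, n = 2).

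**Figure D3:**
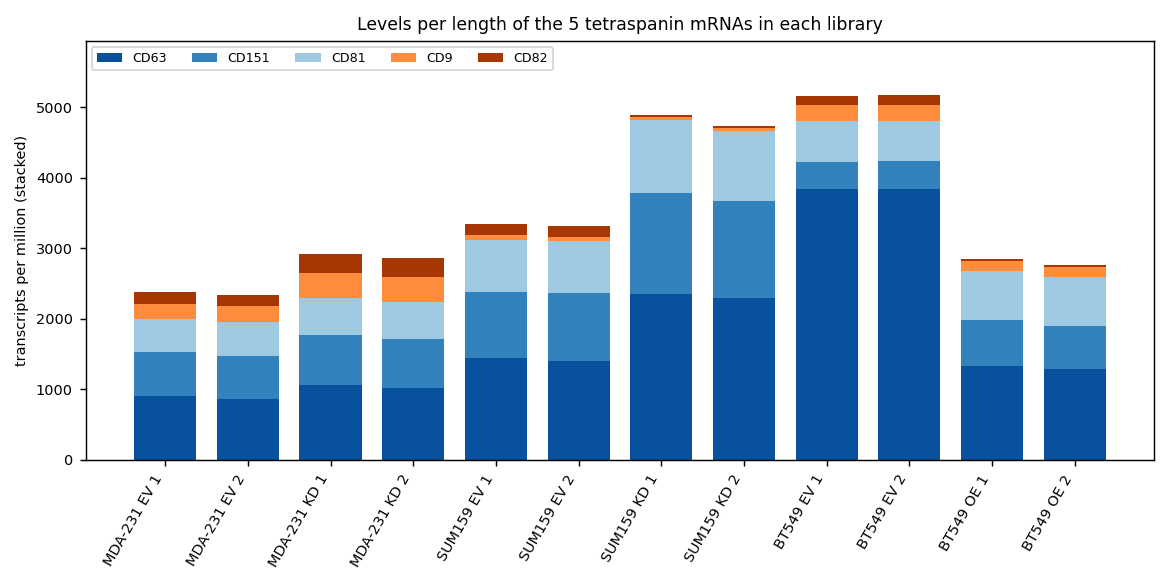
Level per length (TPM) of the 5 tetraspanin mRNAs, stacked, with 1 bar for each of the 12 libraries. CD63 fills 74.4% of the bar in BT549 EV and 46.6 to 47.0% in OE, and CD9 and CD82 are thin bands in SUM159 KD.

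The shares of a gene's transcripts were not used in choosing the members and could be tested. This test was itself chosen with earlier results of these libraries known. The test (diffSpliceDGE of edgeR, each transcript against the other transcripts of its gene, adjusted over all 44543 transcripts) covered 62 transcripts of the members. A changed share was called for 1 of the 62 in MDA-MB-231, beside 0.335% of all transcripts, for 0 in SUM159, beside 0.918%, and for 5 in BT549, beside 3.14%. In SUM159, 10 of the 62 had an unadjusted p under 0.05, and limma's diffSplice called 2. Of the 6 called shares, all were lower in KD or OE than in EV. Those below 10% of their gene's counts are named because they were called, after their values were seen.

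In CD44, 24 of the 35 transcripts in the table have an exon wholly inside the intron with the variable exons. Their summed share of the CD44 counts was 18.3 and 14.8% in BT549 EV and 3.75 and 5.18% in OE, so the groups did not overlap. SUM159 EV had shares of 6.82 and 6.58% and KD of 6.04 and 3.06%, without overlap, and in MDA-MB-231 9.65 and 9.59% in EV and 8.85 and 9.60% in KD, where the groups overlapped. As normalized counts the variable transcripts went from 3048 ± 520 in BT549 EV to 554 ± 114 in OE (SD, n = 2).

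Among single CD44 transcripts, 4 had a called change in BT549. CD44-209, with the 3 exons printed above, held 11.4 and 8.05% of the CD44 counts in EV and 2.67 and 3.59% in OE, a log2 change of the share of -1.63 (adjusted p = 0.00111, diffSpliceDGE). CD44-210, with the third exon alone, held 3.94 and 3.36% in EV and 0.182 and 0.808% in OE (log2 change -2.89, adjusted p = 0.000289, diffSpliceDGE). The short CD44-227, whose annotation ends within the variable exons, went from 1.96 and 2.37% to 0.0401 and 0.121% (adjusted p = 7.94e-06, diffSpliceDGE). CD44-205, which carries none of the variable exons, was called lower too, from 0.756 and 0.342% to 0.0704 and 0.0219% (adjusted p = 0.0141, diffSpliceDGE). The standard CD44-201 held 68.0 and 70.1% in EV and 80.9 and 81.7% in OE, a change that was not called (adjusted p = 0.603, diffSpliceDGE). In SUM159, CD44-209 held 3.48 and 2.54% in EV and 1.56 and 0.700% in KD, which was not called (adjusted p = 0.0616, diffSpliceDGE). CD44-207, annotated as a target of nonsense-mediated decay, held between 11.7 and 20.0% in every library.

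ESRP1 and ESRP2, epithelial splicing factors known to favour variable exons of CD44, were low throughout. ESRP1 had 157 normalized counts in MDA-MB-231 EV and 134 in KD, and 26.2 in SUM159 EV and 4.90 in KD (log2 fold change -2.33, adjusted p = 0.000623, edgeR). In BT549 ESRP1 was at or under 3 counts in both group means, 2.75 in EV and 2.25 in OE. ESRP2 had 2.21 in BT549 EV and 24.7 in OE.

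CD81-212 was the other transcript called. It shares 6 of its 8 exons exactly with CD81-201, the main form, and starts at another first exon (chr11:2390095-2390183, against chr11:2377310-2377615). It held 23.1 and 18.2% of the CD81 counts in MDA-MB-231 EV and 9.26 and 7.13% in KD (log2 change -1.33, adjusted p = 4.73e-05, diffSpliceDGE). In BT549 it held 18.6 and 11.8% in EV and 6.76 and 4.44% in OE (log2 change -1.44, adjusted p = 6.15e-07, diffSpliceDGE). In SUM159 it held 8.67 and 13.3% in EV and 9.68 and 12.5% in KD, where the groups overlapped. CD81-201 held 66.2 and 69.4% in MDA-MB-231 EV and 77.8 and 80.4% in KD, a change that was not called.

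**Figure D4:**
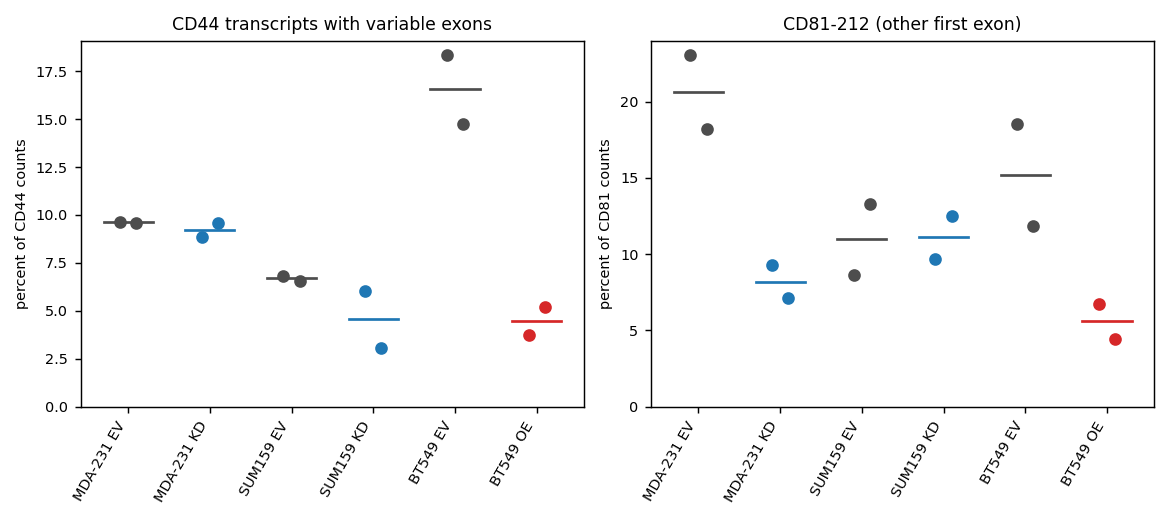
Share, in percent, of CD44 counts on transcripts with variable exons (left) and of CD81 counts on CD81-212 (right), with a point per library and a line at the group mean, n = 2. The BT549 OE libraries lie at 3.75 and 5.18% on the left, below the EV libraries at 18.3 and 14.8%.

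The other members kept to 1 or a few transcripts. MCAM-201 held over 97% of the MCAM counts in every library and CD63-201 likewise of the CD63 counts. THY1-201 held 66.1 and 66.7% in BT549 EV and 65.5 and 68.2% in OE, with THY1-203 near 20% in the same libraries. CD151-202 and CD151-203 together held most of CD151, and CD9-201 and CD9-208 most of CD9. CD151-203 held 29.6 and 30.8% in SUM159 EV and 38.3 and 37.1% in KD, which was not called (adjusted p = 0.120, diffSpliceDGE). Shares of ALCAM and L1CAM transcripts were unstable where counts were few: ALCAM-201 held 57.1 and 87.9% in the 2 SUM159 KD libraries, and L1CAM-202 29.8 and 0.116% in those of SUM159 EV.

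MCAM and THY1 are near each other, so the protein-coding genes between and beside them were read out. RNF26, C1QTNF5, MFRP and USP2 lie between. In SUM159 KD, RNF26 had a log2 fold change of -0.12 (adjusted p = 0.0295, edgeR) and USP2 of 0.99 (adjusted p = 5.00e-09), while C1QTNF5 had no counts. In the same cells NECTIN1, an adhesion molecule on the far side of THY1, fell by 3.35 on the log2 scale (adjusted p = 5.44e-23, edgeR), and CBL, on the far side of MCAM, fell by 0.93 (adjusted p = 1.87e-11). In BT549 OE, C1QTNF5 went from 6.05 to 248 normalized counts (adjusted p = 3.01e-13, edgeR), USP2 had a log2 fold change of 0.89 and NECTIN1 of 2.73 (adjusted p = 2.60e-09 and 1.29e-20), and RNF26 one of -0.11 that was not called (adjusted p = 0.0748). TRIM29 had 0.554 normalized counts in BT549 EV and 18.5 in OE, too few for a fold.

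**Figure D5:**
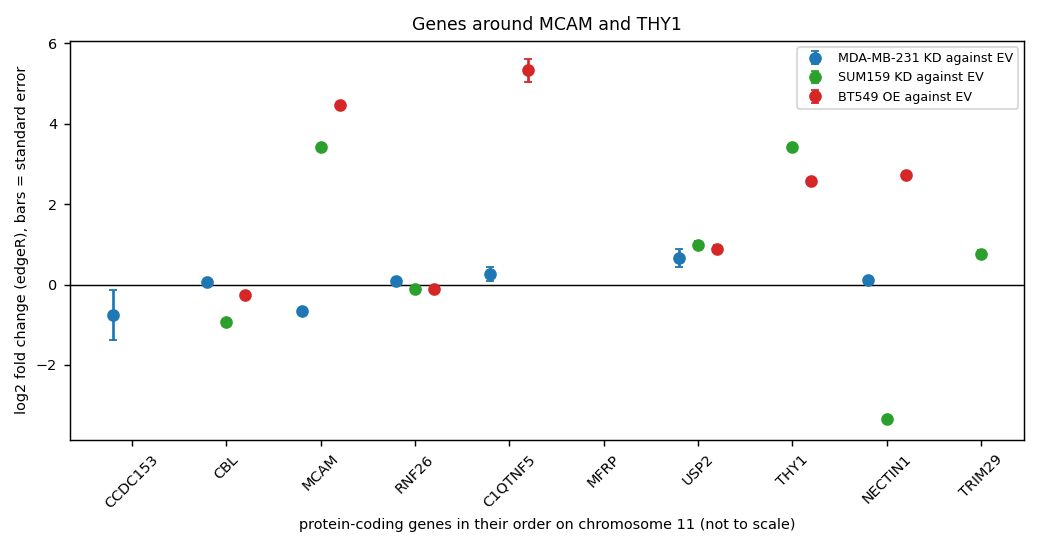
Log2 fold change (edgeR, bars of 1 standard error) of the protein-coding genes around MCAM and THY1 in their order on chromosome 11, not to scale, in the 3 comparisons; values with a group mean at or under 3 normalized counts are left out. RNF26, between the members, lies near 0, and NECTIN1 lies at -3.35 in SUM159 KD and at 2.73 in BT549 OE.

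Several members overlap genes on the other strand, and how the counting treated strand is not given in the sources used here, so reads of the overlaps cannot be told apart. CBL overlaps MCAM by 5398 bases and went from 1300 to 682 normalized counts in SUM159 and from 1523 to 1275 in BT549, while MCAM rose. THY1-AS1 overlaps THY1 by 1164 bases and moved with it, from 76.1 to 879 in SUM159 and from 1257 to 7601 in BT549. USP2-AS1 overlaps THY1 by 9510 bases and went from 287 to 169 in SUM159, against THY1, and from 43.5 to 259 in BT549. POLR2L overlaps CD151 by 2476 bases.

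Promoter sequences from RefSeq (GRCh38.p14) were at hand for 7 of the 10 members and not for THY1, CD81 and CD151. Those of MCAM and CD82 are shown, 250 bases before the start site and on the gene's own strand, because, among the members with an entry, MCAM was raised most and CD82 lowered most in SUM159 KD. The capitals mark matches, on either strand, to the GC box GGGCGG and the E-box CAGGTG, which SNAI and ZEB factors bind. MCAM is at chr11:119317131-119317380 and CD82 at chr11:44565413-44565662.
MCAM promoter: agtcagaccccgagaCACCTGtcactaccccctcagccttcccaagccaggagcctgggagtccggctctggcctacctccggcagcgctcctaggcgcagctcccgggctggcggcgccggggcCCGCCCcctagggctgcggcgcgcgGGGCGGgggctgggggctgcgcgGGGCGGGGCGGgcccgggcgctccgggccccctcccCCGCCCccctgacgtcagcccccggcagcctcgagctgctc
CD82 promoter: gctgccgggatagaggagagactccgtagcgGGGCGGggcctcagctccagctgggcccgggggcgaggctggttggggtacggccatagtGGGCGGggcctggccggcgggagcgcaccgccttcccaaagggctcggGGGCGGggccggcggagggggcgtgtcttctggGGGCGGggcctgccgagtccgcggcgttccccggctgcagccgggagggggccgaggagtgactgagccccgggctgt

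MCAM holds 5 GC boxes and 1 E-box in 79.6% G and C, and CD82 holds 4 GC boxes and no E-box in 77.2%. The median of all promoters in the table was 58% G and C. Over 35116 promoters of the same length, 42.6% held the GC box and 17.5% the E-box. The same windows of MCAM, ALCAM, L1CAM, CD44, CD9 and CD82 held no match to TATAAA (10.7% of all), the AP-1 letters TGANTCA (6.57%) or the TEAD letters GGAATG (11.9%). CD63, with 8 promoter entries, held 1 match to the AP-1 letters and 1 to the TEAD letters over all of them, and none to TATAAA. These matches are letters in a window and say nothing of binding.

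Among 21 partners of tetraspanins, all tested, 8 rose and 2 fell in MDA-MB-231 KD, 6 rose and 10 fell in SUM159 KD, and 5 rose and 12 fell in BT549 OE. Of all genes, 21.2% were called higher and 16.5% lower in MDA-MB-231 KD, 28.6% and 31.4% in SUM159 KD, and 35.6% and 35% in BT549 OE, shares against which the counts of this and the following lists stand. The partners had medians of 0.08, -0.51 and -1.08 on the log2 scale against 0, 0 and 0.02 over all genes. Integrin chains of laminin receptors, known partners of CD151, went both ways in SUM159 KD, where CD151 was higher. Lower were ITGB4 with a log2 fold change of -3.73 (adjusted p = 1.05e-22), ITGA6 of -1.87 (adjusted p = 2.13e-19) and ITGA3 of -1.23 (adjusted p = 6.27e-19), all edgeR. ITGA7, named after its value was seen, rose from 15.1 to 165 normalized counts (log2 fold change 3.44, adjusted p = 2.06e-08, edgeR), and ITGB1, the chain shared by many integrins and named likewise, had a log2 fold change of -0.09 (adjusted p = 0.0114, edgeR). In BT549 OE, ITGA3 fell by 4.99, from 6977 ± 96.7 to 220 ± 0.55 normalized counts (SD, n = 2; adjusted p = 8.86e-28, edgeR), and ITGA5, a fibronectin receptor chain, fell by 3.40 (adjusted p = 3.04e-25, edgeR). PTGFRN, an immunoglobulin partner of CD9 and CD81, rose from 38.5 ± 7.48 to 3741 ± 62.7 (adjusted p = 1.10e-25, edgeR). In MDA-MB-231 KD, ITGA5, MMP14 and PI4K2A rose by 0.48, 0.43 and 0.47 on the log2 scale (adjusted p = 8.10e-10, 8.42e-09 and 1.35e-08, edgeR).

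Of 28 other tetraspanins 19 were tested: 4 rose and 2 fell in MDA-MB-231 KD, 7 rose and 5 fell in SUM159 KD, and 7 rose and 7 fell in BT549 OE. Of all genes, 21.2% and 16.5%, 28.6% and 31.4%, and 35.6% and 35% were called higher and lower in these comparisons. Genes not tested, here and in the lists below, had no row or did not pass the filter on low counts. An mRNA not detected in BT549 has no row, so genes found only in the other lines are not counted. In BT549 OE the list's shares were near those of all genes, and the medians were 0.00, 0.09 and -0.26 on the log2 scale in the order above. TSPAN9 rose in MDA-MB-231 KD (log2 fold change 0.52, adjusted p = 4.44e-08, edgeR) and fell in SUM159 KD (-1.79, adjusted p = 7.87e-18) and BT549 OE (-0.93, adjusted p = 2.98e-14), the signs of CD9 and CD82. TSPAN7 fell in SUM159 KD from 729 ± 0.605 normalized counts (SD, n = 2), with a log2 fold change of -5.90 (adjusted p = 5.50e-16, edgeR). In BT549 OE, TSPAN13 fell by 3.16 and TSPAN3 rose by 0.68 on the log2 scale (adjusted p = 7.52e-16 and 6.24e-16, edgeR).

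Of 18 genes of extracellular vesicle formation, 8 rose and 3 fell in MDA-MB-231 KD, 5 rose and 9 fell in SUM159 KD, and 5 rose and 11 fell in BT549 OE, with medians of 0.19, -0.14 and -0.24 on the log2 scale. The shares of all genes called were 21.2% and 16.5%, 28.6% and 31.4%, and 35.6% and 35%. SDCBP (syntenin), the adaptor that loads CD63 and syndecans into vesicles, had 55242 ± 910 normalized counts in BT549 EV and 9375 ± 89.8 in OE (SD, n = 2; log2 fold change -2.56, adjusted p = 2.02e-25, edgeR), falling beside CD63. In SUM159 KD, SDCBP fell by 0.44 (adjusted p = 3.42e-10, edgeR) while CD63 was higher, and in MDA-MB-231 KD it rose by 0.35 (adjusted p = 2.19e-08, edgeR). RAB27B, which docks vesicles at the membrane, fell by 1.47 in BT549 OE, and LAMP1, a lysosomal membrane protein, fell by 0.50 there and rose by 0.42 in MDA-MB-231 KD (adjusted p = 7.12e-17, 1.15e-14 and 7.25e-11, edgeR). ARF6, a membrane traffic GTPase, rose by 0.69 and HGS, an early sorting factor of endosomes, fell by 0.94 in SUM159 KD (adjusted p = 2.08e-16 and 1.21e-14, edgeR).

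Of 22 genes of the hyaluronan and CD44 pathway 18 were tested: 3 rose and 4 fell in MDA-MB-231 KD, 8 rose and 7 fell in SUM159 KD, and 13 rose and 3 fell in BT549 OE, with medians of -0.09, 0.24 and 0.76 on the log2 scale. All genes were called at 21.2% and 16.5%, 28.6% and 31.4%, and 35.6% and 35% in these comparisons. In BT549 OE, where CD44 was lower, HAS3, a hyaluronan synthase, rose by 1.86, VCAN, a hyaluronan-binding proteoglycan, by 2.23 and MSN, which ties CD44 to the cytoskeleton, by 0.75 on the log2 scale (adjusted p = 1.67e-19, 5.67e-16 and 8.82e-16, edgeR). MSN fell in SUM159 KD by 0.62 and in MDA-MB-231 KD by 0.14 (adjusted p = 4.73e-14 and 0.000630, edgeR). HYAL2, a hyaluronidase, and SRGN, a proteoglycan ligand of CD44, rose in SUM159 KD by 1.03 and 1.05 (adjusted p = 3.98e-15 and 1.24e-14, edgeR). NF2 (merlin) fell by 0.47 and CEMIP2 rose by 0.43 in MDA-MB-231 KD (adjusted p = 9.98e-07 and 4.09e-05, edgeR).

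Of 34 other immunoglobulin adhesion molecules 26 were tested: 7 rose and 4 fell in MDA-MB-231 KD, 10 rose and 10 fell in SUM159 KD, and 16 rose and 6 fell in BT549 OE, beside 21.2% and 16.5%, 28.6% and 31.4%, and 35.6% and 35% of all genes. The medians were 0.04, -0.02 and 0.63 on the log2 scale. ICAM1 fell in both knockdown lines, with log2 fold changes of -0.91 in MDA-MB-231 and -3.72 in SUM159 (adjusted p = 2.00e-08 and 1.19e-19, edgeR), and JAM3 had one of -3.04 in SUM159 (adjusted p = 4.38e-13, edgeR). BCAM, a laminin receptor, rose in BT549 OE by 5.76 (adjusted p = 2.48e-25, edgeR), and CADM1 had 2.74 normalized counts in EV and 3059 in OE. BSG (CD147) and CADM4 fell in MDA-MB-231 KD by 0.39 and 0.70 (adjusted p = 2.12e-11 and 4.78e-08, edgeR).

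Of 24 ligands and receptors of MCAM, THY1, ALCAM and L1CAM 19 were tested: 12 rose and 3 fell in MDA-MB-231 KD, 9 rose and 8 fell in SUM159 KD, and 8 rose and 9 fell in BT549 OE, beside the same shares of all genes (21.2% and 16.5%, 28.6% and 31.4%, 35.6% and 35%). The medians were 0.29, 0.19 and -0.12 on the log2 scale. FGFR1, a receptor that L1CAM can engage, rose in all 3, by 0.45, 1.19 and 1.70 on the log2 scale (adjusted p = 1.58e-10, 1.67e-18 and 1.58e-23, edgeR). PDGFRB, a receptor that MCAM can join, rose by 1.38 and EGFR fell by 0.56 in MDA-MB-231 KD (adjusted p = 7.00e-10 and 5.50e-10, edgeR). In SUM159 KD both were lower, with log2 fold changes of -1.20 for PDGFRB and -1.29 for EGFR (adjusted p = 3.22e-08 and 1.19e-16, edgeR). LGALS1 and ITGB5 rose in SUM159 KD by 1.24 and 1.03 (adjusted p = 3.24e-20 and 7.19e-17, edgeR). LGALS3, a galectin that binds MCAM, fell by 2.92 in BT549 OE (adjusted p = 4.06e-25, edgeR). LGALS3 rose in SUM159 KD by 1.05 and in MDA-MB-231 KD by 0.18 (adjusted p = 3.49e-13 and 0.00042, edgeR). LGALS1 likewise fell in BT549 OE, by 0.59, and rose in MDA-MB-231 KD by 0.35 (adjusted p = 8.40e-15 and 1.87e-09, edgeR).

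The genes whose log2 levels over the 12 libraries were most like those of the 4 most variable members were named by Pearson's r within the 12590 genes that averaged 50 counts or more. Libraries of a line lie close together, so r mostly follows the order of the 6 groups, and it takes no account of size. MCAM was followed most closely by BAD (r = 0.976) and DBNDD1 (0.967). THY1 was followed by VEGFB and AURKAIP1 (both 0.997), L1CAM by PRSS23 (0.996) and MYO5C (0.993), and ALCAM by NR2F2 (0.998) and ZFP3 (0.997). BAD lay between 912 normalized counts in BT549 EV and 1658 in SUM159 KD, a far smaller span than that of MCAM.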

How the data were processed

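Polysome RNA-seq of 12 libraries was analysed, 2 per group. The deposited table holds estimated counts (expected counts, not whole) for 201932 Ensembl transcripts. Per the labels and the study's methods, the authors used Trimmomatic, HISAT2, GRCh38, SAMtools duplicate removal and Partek; removing duplicates without molecular identifiers can lower the counts of the most abundant mRNAs. The counting tool, annotation and strand setting are not given in the sources used here. The labels name a poly(A) kit and the methods a stranded kit after ribosomal RNA depletion. The 8 MDA-MB-231 and SUM159 columns carry a question mark in 10254 transcripts (5.08%), taken as 0; these hold 0.121% of the BT549 counts. No transcript is at 0 in all 4 BT549 libraries, so an mRNA not detected in BT549 has no row.

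Transcripts were matched to GENCODE 44 (79.6% of them, 99.25 to 99.41% of counts), summed per symbol and rounded. edgeR 4.0.16 (TMM, filterByExpr, quasi-likelihood, 6 group means, 6 residual degrees of freedom, R 4.3.3) compared KD or OE with EV within each line, with Benjamini-Hochberg adjustment over 16538 genes; scripts were tested on simulated data. Transcripts averaging at least 10 counts entered diffSpliceDGE. TPM used annotated lengths. Alternatives were other scalings, filters and tools (DESeq2 1.42.0, limma 3.58.1), a replicate block, each line alone, marked transcripts left out, the most abundant transcript, and each library left out. Members, lists and tests were chosen with earlier results of these data known. Named besides the members were the 3 called genes with the smallest p per list and comparison, the 2 genes most like each of 4 members, neighbours of MCAM and THY1, and transcripts with at least 10% of a member's counts; ESRP1, ESRP2 and overlapping genes were named after their values were seen.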

Additional observations from a re-analysis of the deposited data

Results flagged for a closer look

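In 5 members every KD library moved away from its EV libraries in one direction in MDA-MB-231 and in the opposite direction in SUM159. The log2 fold change in MDA-MB-231 minus that in SUM159 was -4.07 for MCAM, 1.13 for L1CAM, 0.83 for CD44, 1.20 for CD9 and 3.31 for CD82. The SUM159 side of L1CAM rests on 28.3 and 23.1 normalized counts in EV and 16.1 and 16.4 in KD. The difference was not tested, because the members were chosen with it known.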

How the results depend on the processing

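Of 377 log2 fold changes of members recomputed under alternatives over 29 results, 369 kept their direction and side of the threshold. The numbers of members called and of transcript shares called are not among these 377, and their shifts are given beside them below. Members called lower in MDA-MB-231 KD were 2, not 1, with library size as the only scaling, with a mean of at least 50 counts, and with the line fitted alone, because ALCAM was then called (log2 -0.21, -0.13 and -0.13). ALCAM in SUM159 KD, at 0.02, turned to -0.015 with library size only and to -0.21 with its most abundant transcript, uncalled in each. Transcripts of members with a changed share in SUM159 KD were 1 with a mean of at least 50 counts and 2 with limma, against 0, and between 0 and 1 with a library left out. In BT549 OE they were 3 to 6 with a library left out, against 5, and 3 without the first OE library. L1CAM lost its call in MDA-MB-231 KD with its most abundant transcript (0.59) and gained one in SUM159 KD with library size only (-0.69) and with its most abundant transcript (-7.27). With the most abundant transcript per gene, 3233 genes were called in MDA-MB-231 KD against 6240. The causes were not tested. Replicate numbers did not pair the samples (correlation of deviations over 12590 genes 0.0195, -0.0247 and 0.00376); with the replicate block the members called higher and lower stayed 7 and 1, 5 and 3, and 5 and 5, and 1, 0 and 4 transcript shares of members were called. Few counts limit L1CAM in SUM159 and THY1 in MDA-MB-231.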
